A study of Anas platyrhynchos with 6 samples.

Results

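The subject is 4 RefSeq transcripts of CALD1, the caldesmon gene, in the ovary of laying ducks: XM_005017090.2, XM_005017091.2, XM_005017093.2 and XM_005017095.2. They were taken by identifier from 41952 transcripts. They were selected on the difference in mean FPKM of XM_005017091.2 between laying groups, seen in earlier results of these data beside overlapping CALD1 totals, so all differences between the groups in these 4 transcripts are given as description, with no test. A gene table of the Pekin duck telomere-to-telomere assembly assigned all 4 to CALD1 once version numbers were dropped, together with 4 further transcripts of the tables, XM_013097137.1, XM_013097138.1, XM_013097139.1 and XM_013097140.1.

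Caldesmon binds actin, tropomyosin, myosin and calmodulin along the thin filament and restrains the actin-activated ATPase of myosin. In vertebrates a single gene gives a long form typical of smooth muscle and shorter forms found in most other cells, by alternative promoters and splicing. In the bird ovary, smooth muscle lies in the walls of blood vessels and in the outer wall of the follicle, where contraction takes part in ovulation. Which of these forms each duck transcript encodes was not analysed here.

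The ovaries came from Jinding ducks, a Chinese laying breed, drawn from a half-sib family, fed alike and 340 days old. Ducks of the high group had a laying rate above 99% and those of the low group one below 85%, from daily egg records, with 3 libraries per group. No strain, allele or agent separated the groups, and the labels leave unsaid whether libraries came from different ducks, so any p-value reflects only the variation among these samples, which may be technical. Whole ovary was used, and in bulk tissue fewer cells of a type and less RNA per cell cannot be told apart.

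Levels are in FPKM (fragments scaled by transcript length and sequencing depth, a unit inferred from the values), and they summed to between 622708 and 639135 per high library and between 569606 and 605510 per low library. Read depth is unknown. Oocyte genes were well detected: ZP2, an egg-coat protein gene, was between 288 and 467 FPKM in high and between 179 and 517 FPKM in low libraries. FSHR, the follicle-stimulating hormone receptor of granulosa cells, was between 12.8 and 17.9 FPKM in high and between 15.5 and 18.6 FPKM in low libraries. Few differences were called across all transcripts. Of 19790 tested, 1, or 0.00505%, passed the limma test with Benjamini-Hochberg adjustment, and 694 had an unadjusted p under 0.05.

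CALD1 was an abundant gene in these ovaries. Its 8 transcripts summed to 205, 156 and 147 FPKM in high libraries 1, 2 and 3 and to 144, 230 and 249 FPKM in low libraries 1, 2 and 3. The groups overlapped, with the lowest and the 2 highest sums all in the low group, and means of 169 ± 31.3 FPKM in high and 208 ± 56.1 FPKM in low ovaries (SD, n = 3 each, as for all means below). By mean summed FPKM it stood at place 53 of 1709 named genes. That place depends on how many transcripts were matched to each gene. CALD1 was among those with the most tested transcripts, 8, while 345 genes had 2 or more. The largest single contribution came from XM_013097140.1, at 80.8 ± 13.1 FPKM in high and 84.8 ± 16.7 FPKM in low ovaries. The 4 transcripts described here made up 30.7%, 33.1% and 27.7% of CALD1 in the high libraries, against 29.5%, 36.3% and 40.4% in the low libraries.

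Within the set, XM_005017090.2 and XM_005017095.2 were substantial and the others minor. XM_005017090.2 was the most abundant in each of the 6 libraries and XM_005017095.2 was next in each. XM_005017091.2 came after them in 5 libraries, and in high 3 it stood behind XM_005017093.2. Averaged over all 6 libraries they stood at 31.5, 20.1, 8.18 and 3.83 FPKM, in the order XM_005017090.2, XM_005017095.2, XM_005017091.2, XM_005017093.2. All 4 reached the filter of at least 1 FPKM in at least 3 libraries. These means placed them at percentiles 80.9, 72.0, 50.9 and 32.8 of the tested transcripts.

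XM_005017090.2 was at 33.5, 27.8 and 23.4 FPKM in high libraries 1, 2 and 3 and at 17.7, 39.7 and 47.1 FPKM in low libraries 1, 2 and 3. The high values lay inside the range of the low ones. Its means were 28.2 ± 5.06 FPKM in high and 34.8 ± 15.3 FPKM in low ovaries, a high-to-low ratio of 0.811. On the log2(FPKM + 1) scale the difference, high minus low, was -0.20 with a standard error of 0.44. That difference had no settled direction, since without low 3 it was 0.070.

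XM_005017095.2 was at 20.6, 19.4 and 14.0 FPKM in the high libraries, against 15.5, 25.6 and 25.6 FPKM in the low libraries. Low 2 and low 3 were above all high libraries, and low 1 was above high 3 only. The means were 18.0 ± 3.50 FPKM in high and 22.3 ± 5.86 FPKM in low ovaries, a ratio of 0.808 and a log2 difference of -0.28 (SE 0.28). It was the steadiest of the 4, with a highest value 1.83 times its lowest.

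XM_005017091.2, the transcript for which the set was chosen, was the most variable. It was at 4.64, 2.33 and 1.06 FPKM in the high libraries, against 5.54, 11.9 and 23.6 FPKM in the low libraries. Every high library was below every low library, though high 1 and low 1 were close, and the low values spread over a wide range. Of all tested transcripts 4.83% were likewise lower in each high than in each low library. The means were 2.67 ± 1.82 FPKM in high and 13.7 ± 9.16 FPKM in low ovaries, a ratio of 0.196, and the log2 difference was -1.92 (SE 0.69). The difference was -2.40 without low 1 and -1.44 without low 3. From the lowest library to the highest the level differed by a factor of 22.4, against 2.66 for XM_005017090.2.

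XM_005017093.2 was the least abundant on average, at 4.14, 2.10 and 2.22 FPKM in the high libraries, against 3.76, 6.33 and 4.42 FPKM in the low libraries. Only high 1 reached into the range of the low libraries, above low 1. Of the 9 pairings of a high with a low library, the high one was lower in 8. For XM_005017090.2, XM_005017091.2 and XM_005017095.2 it was lower in 6, 9 and 7. The pairings reuse the same 6 libraries and are not independent. How often other transcripts reach 8 was not computed. The means were 2.82 ± 1.15 FPKM in high and 4.84 ± 1.34 FPKM in low ovaries, a ratio of 0.583, with a log2 difference of -0.63 (SE 0.30).

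**Figure D1:**
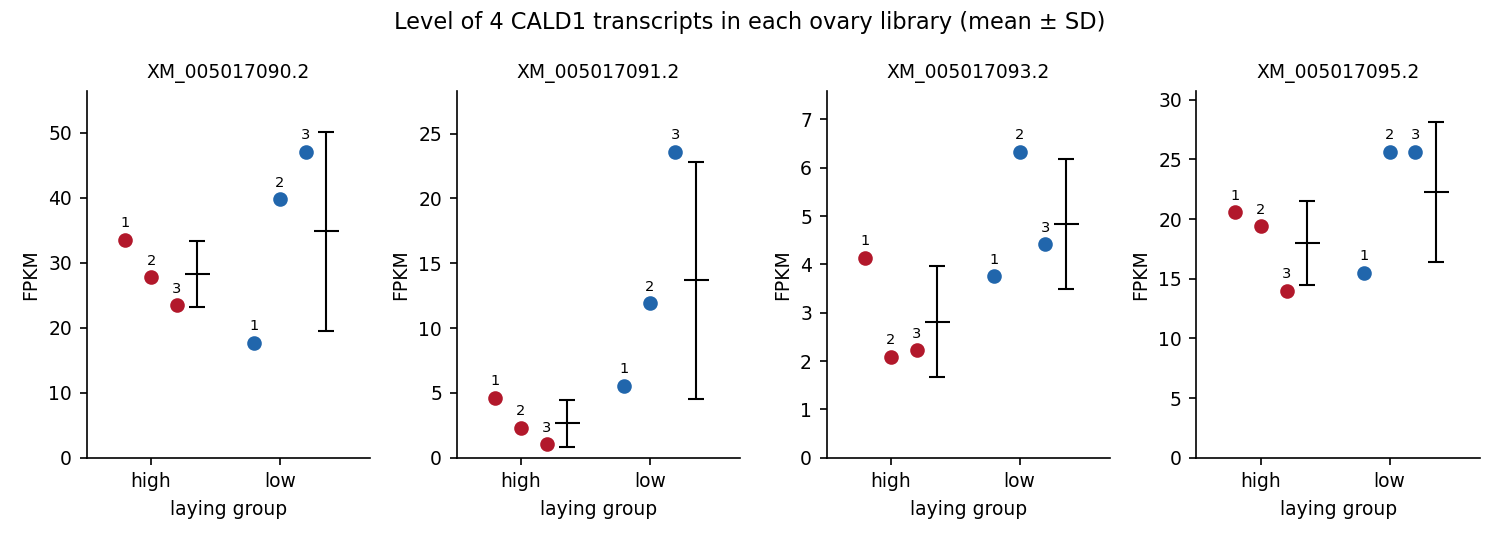
FPKM of each of the 4 CALD1 transcripts (vertical axes from 0, each with its own scale) in the high and low groups; points are libraries, numbered by replicate, and bars to their right give the mean ± SD of 3 libraries. Only XM_005017091.2 has no overlap between groups, with high libraries at 1.06 to 4.64 and low libraries at 5.54 to 23.6 FPKM.

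Expressed as shares of the sum of the 4, XM_005017091.2 and XM_005017090.2 did not overlap between groups, and the others did. XM_005017091.2 was selected for its group difference and is part of the denominator of each share. These shares are therefore not independent of that selection. A share does not change with the scaling of a library, but a rise in one transcript lowers the shares of the others. XM_005017091.2 made up 7.39%, 4.51% and 2.59% of the sum of the 4 in the high libraries, against 13.0%, 14.2% and 23.4% in the low libraries. Its mean share was 4.83 ± 2.41% in high, against 16.9 ± 5.69% in low ovaries, a difference of -12.1 points (SE 3.57), and the groups did not overlap.

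The share of XM_005017090.2 was higher in the high group. It was 53.3%, 53.9% and 57.6% in the high libraries, against 41.6%, 47.5% and 46.7% in the low libraries, again without overlap. The mean share was 54.9 ± 2.31% in high and 45.3 ± 3.19% in low ovaries, a difference of 9.62 points (SE 2.28). This rested on the choice of denominator: of all 8 CALD1 transcripts it held 16.7 ± 1.0% in high and 16.1 ± 3.43% in low ovaries, and the groups overlapped.

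The remaining shares overlapped. Of the sum of the 4, XM_005017095.2 held 34.9 ± 2.48% in high and 30.9 ± 5.51% in low ovaries. Of all 8 it held 10.7 ± 1.57% in high and 10.7 ± 0.431% in low ovaries. XM_005017093.2 held 5.37 ± 1.27% of the sum of the 4 in high ovaries, against 6.94 ± 2.30% in low ovaries.

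Against all 8 CALD1 transcripts, XM_005017091.2 was the single one whose shares did not overlap between groups. It held 2.26%, 1.49% and 0.718% in the high libraries, against 3.84%, 5.17% and 9.46% in the low libraries, with means of 1.49 ± 0.773% in high and 6.16 ± 2.94% in low ovaries. The same comparison could be made for 824 tested transcripts of 345 named genes that had at least 2. Their shares were lower in every high library for 5.22% and separated in either direction for 10.3%. CALD1 and 1 other of these genes had the most tested transcripts, 8. The largest share shift within CALD1, 6.50 points for XM_013097140.1, was exceeded by the largest shift of 122 of the 345 genes, whose median was 4.79 points. XM_013097138.1 and XM_013097139.1 shifted by -5.86 and 4.86 points. The shift of XM_005017091.2, -4.67 points, was smaller in size than each of these, though those of the others came with overlap between groups.

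**Figure D2:**
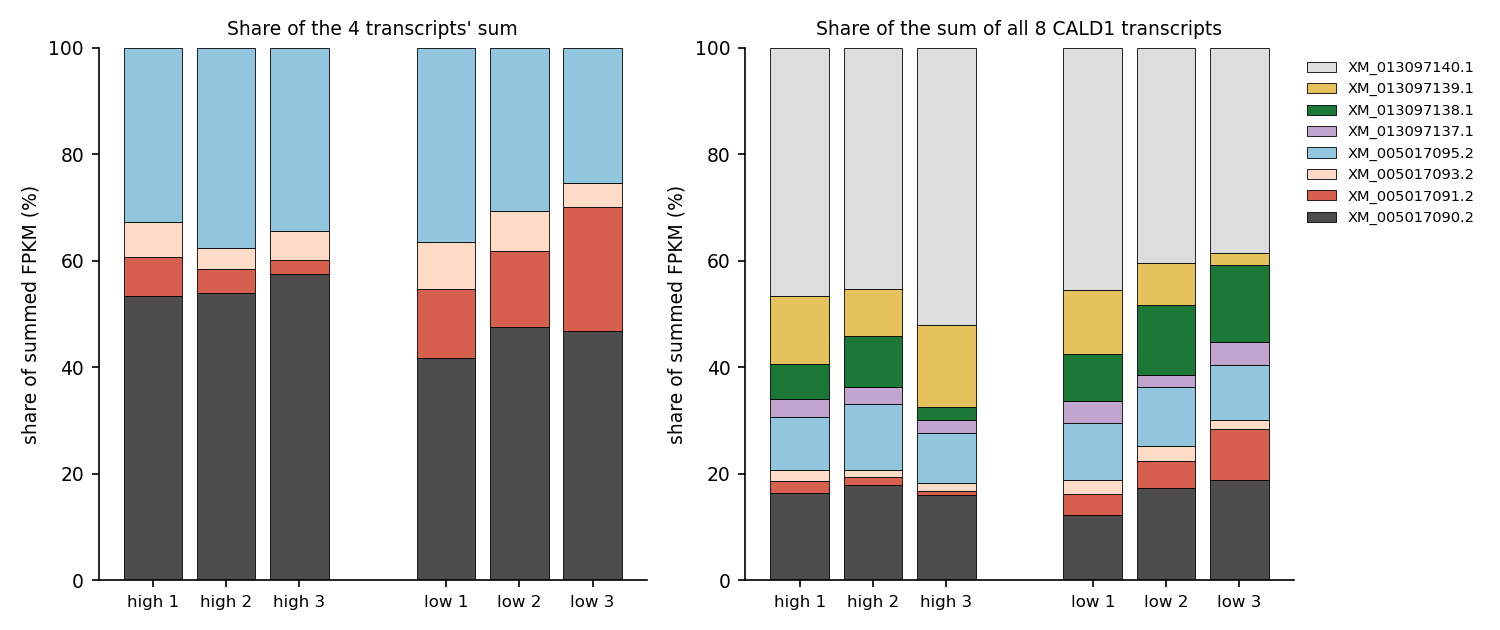
Stacked shares of summed FPKM (percent) in each library, the 3 high libraries left of the 3 low ones; the left panel divides the sum of the 4 transcripts and the right panel the sum of all 8 CALD1 transcripts. XM_005017091.2 takes 2.59% to 7.39% of the 4 in high and 13.0% to 23.4% in low libraries.

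Ratios between transcripts of the same library avoid a denominator that is a sum including the numerator. The ratio of XM_005017091.2 to XM_005017090.2 was 0.138, 0.0837 and 0.0450 in the high libraries, against 0.313, 0.299 and 0.502 in the low libraries. The groups did not overlap. On the log2 scale the ratio averaged -3.63 ± 0.81 in high ovaries, against -1.47 ± 0.41 in low ovaries, a difference of -2.16 (SE 0.53). With a library left out the difference ran from -2.56 to -1.75.

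XM_005017095.2 was 4.43, 8.34 and 13.3 times as abundant as XM_005017091.2 in the high libraries, against 2.80, 2.15 and 1.09 times in the low libraries. The groups did not overlap, and in low 3 the levels were nearly equal. XM_005017093.2 stood to XM_005017091.2 at 0.892, 0.901 and 2.11 in the high libraries, against 0.679, 0.532 and 0.187 in the low libraries, also without overlap.

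Ratios that left out XM_005017091.2 overlapped between groups. XM_005017095.2 over XM_005017090.2 was 0.636 ± 0.0540 in high and 0.689 ± 0.170 in low ovaries. Its log2 difference was -0.090 (SE 0.21). XM_005017093.2 over XM_005017090.2 was 0.0979 ± 0.0242 in high, against 0.155 ± 0.0594 in low ovaries, and XM_005017095.2 over XM_005017093.2 was 6.84 ± 2.20 in high, against 4.66 ± 0.991 in low ovaries. The 3 ratios without overlap were the 3 that contain XM_005017091.2, the transcript selected for its group difference, and they are not independent of one another. How often transcript ratios of other genes, or shares of part of a gene's transcripts, separate in this way was not computed.

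**Figure D3:**
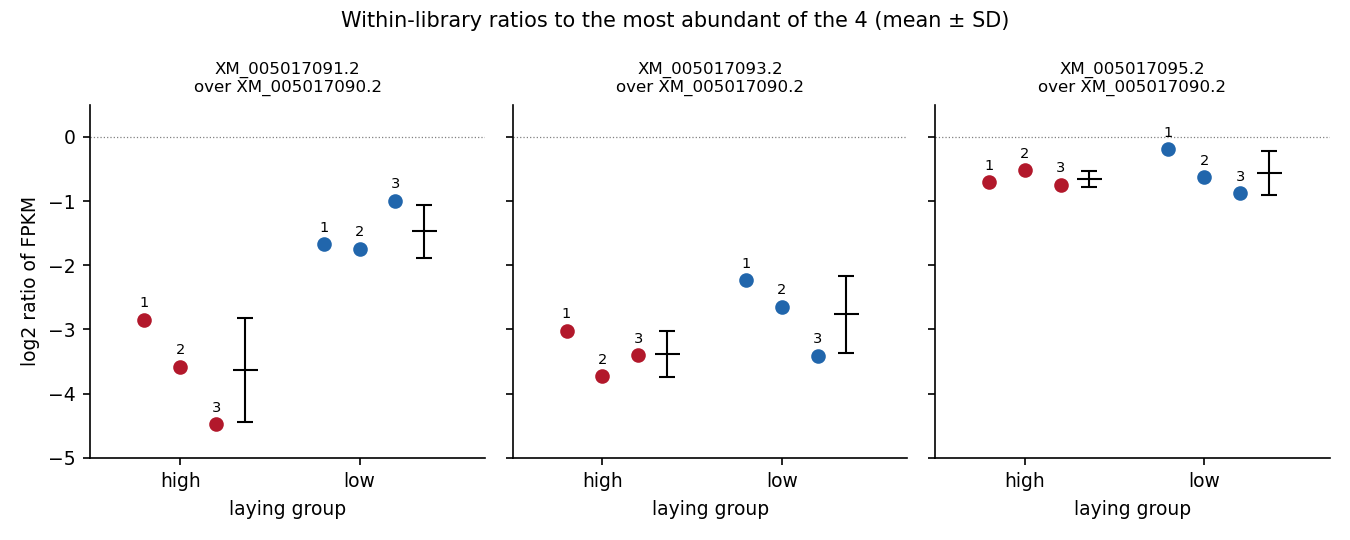
Log2 ratio of FPKM of 3 CALD1 transcripts to XM_005017090.2 in the same library, high group left of low; points are libraries, numbered by replicate, bars to their right give mean ± SD (n = 3), and the dotted line marks equal levels. The XM_005017091.2 ratio averages -3.63 in high and -1.47 in low ovaries, while the XM_005017095.2 ratio averages -0.66 in high and -0.57 in low ovaries.

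Among the further CALD1 transcripts, XM_013097138.1 had the pattern most like that of XM_005017091.2. It was at 13.5, 15.0 and 3.74 FPKM in the high libraries, against 12.8, 30.3 and 35.7 FPKM in the low libraries, so the groups overlapped. Likeness was taken as the root mean square difference of log2(FPKM + 1), each transcript centred on its own mean over the 6 libraries, and was 0.50 for this pair. XM_013097139.1 was the least like it, at 1.67, with 26.2, 13.7 and 22.5 FPKM in the high libraries, against 17.2, 18.3 and 5.99 FPKM in the low libraries. In low 3, XM_005017091.2 was at its highest and XM_013097139.1 at its lowest. Transcripts of a gene share sequence, and an estimate that gives reads to one transcript takes them from another. How much of these opposite values arose in that step was not tested.

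The CALD1 total and XM_005017090.2 ordered the libraries in the same way as ACTA2, the smooth muscle alpha-actin gene. ACTA2 was at 1794, 1794 and 1427 FPKM in the high libraries, against 1154, 2147 and 2510 FPKM in the low libraries, and differed by -0.15 on the log2 scale (SE 0.33) with a limma adjusted p of 0.9998. Ranked from highest to lowest, ACTA2, the CALD1 sum and XM_005017090.2 each gave the order low 3, low 2, high 1, high 2, high 3, low 1, although ACTA2 was nearly equal in high 1 and high 2. XM_005017090.2 amounted to 1.87%, 1.55% and 1.64% of the ACTA2 level in the high libraries, against 1.53%, 1.85% and 1.87% in the low libraries, nearly constant where its FPKM varied by a factor of 2.66.

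XM_005017091.2 did not keep to that order, nor did XM_005017093.2. XM_005017095.2 and the sum of the 4 kept to it except that low 1 stood above high 3. Those levels were close, at 15.5 against 14.0 FPKM for XM_005017095.2 and 42.5 against 40.7 FPKM for the sum. XM_005017091.2 amounted to 0.259%, 0.130% and 0.0739% of ACTA2 in the high libraries, against 0.480%, 0.554% and 0.940% in the low libraries. The groups again did not overlap. The sum of the 4, which includes it, was also without overlap, at 3.50%, 2.88% and 2.85% in high, against 3.68%, 3.89% and 4.01% in low libraries. XM_005017090.2, XM_005017093.2 and XM_005017095.2 each overlapped. In low 1, which had the lowest ACTA2 and the lowest CALD1 sum, XM_005017091.2 was at 5.54 FPKM, against 4.64 FPKM in high 1. This transcript was selected for its group difference, and its relation to ACTA2 was not tested. How often other transcripts separate when set against ACTA2 was not computed. Setting transcripts against ACTA2 was chosen after the values were seen.

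**Figure D4:**
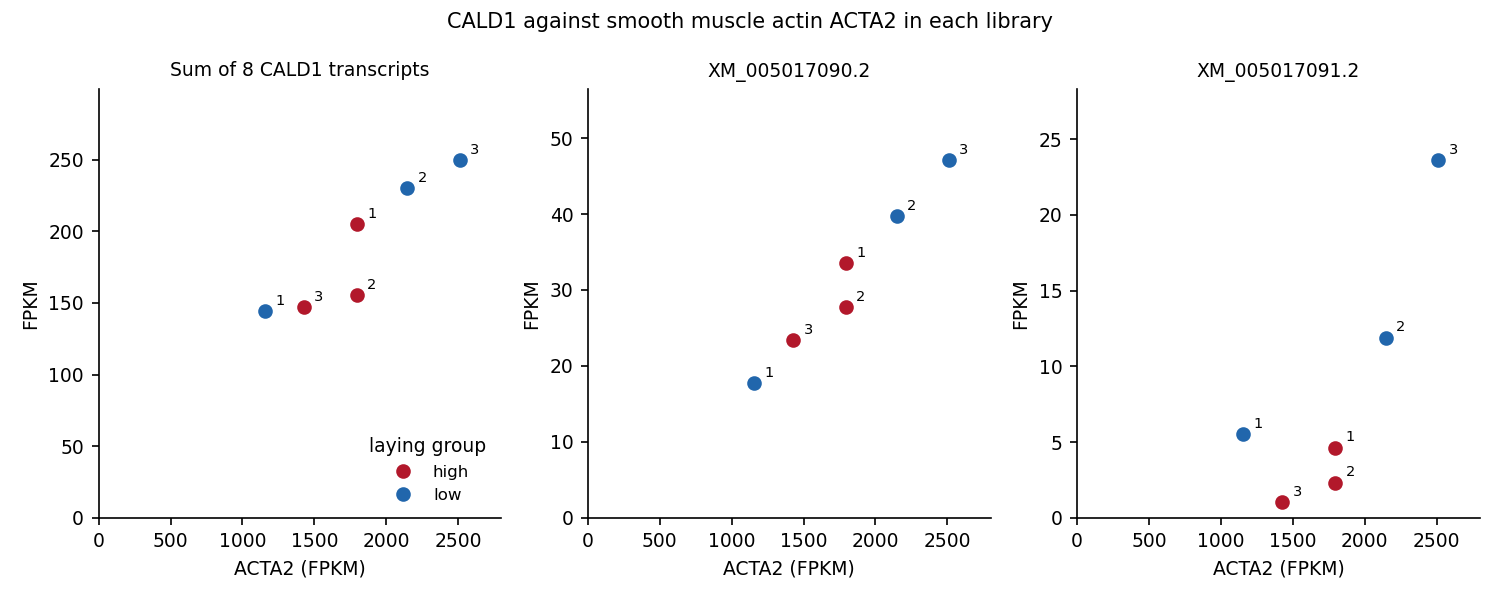
FPKM of the sum of 8 CALD1 transcripts, of XM_005017090.2 and of XM_005017091.2 (vertical axes) against ACTA2 FPKM (horizontal axis), with 1 point per library, numbered by replicate within the high and low groups. XM_005017090.2 lies at 1.53% to 1.87% of ACTA2 in all 6 libraries, while XM_005017091.2 lies at 0.0739% to 0.259% in high and 0.480% to 0.940% in low libraries.

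Of 20 smooth muscle markers 4 could be matched by name, all 4 were tested, and none of the 4 was at 0. Their summed level was 1694 to 2215 FPKM in high and 1401 to 2975 FPKM in low libraries, and its part in the CALD1 values was not tested. None of the 4 passed the test, 0 had an unadjusted limma p under 0.05, and 1 was higher and 3 lower in the high group. Their median log2 difference was -0.14, beside -0.0028 over all tested transcripts. KCNMB1, the beta subunit of the calcium-activated potassium channel of smooth muscle, was at 149, 231 and 121 FPKM in high and 88.1, 134 and 212 FPKM in low libraries. These KCNMB1 values are of the most abundant of its 3 tested transcripts. PDLIM3, a protein of Z-discs and stress fibres, was at 94.2 ± 9.75 FPKM in high, against 104 ± 7.72 FPKM in low ovaries. SYNPO2, an actin-binding protein of muscle, was at 75.8 ± 19.8 FPKM in high, against 90.1 ± 43.9 FPKM in low ovaries. Like CALD1, all 4 were at their highest or next to highest in low 3.

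Of 74 genes for other proteins of the actin filament 8 could be matched by name and 6 were tested. Of these, 3 were higher and 3 lower in the high group, with a median log2 difference of 0.047. None passed, and CFL2 and PLS3 had an unadjusted limma p under 0.05, as did 3.51% of all tested transcripts. CFL2, the muscle cofilin that severs filaments, was at 80.5, 85.0 and 74.2 FPKM in the high libraries, against 100.4, 125 and 106 FPKM in the low libraries, lower in all high libraries than in any low one. It differed by -0.46 on the log2 scale (SE 0.15) with a limma adjusted p of 0.9998. Of all tested transcripts, 4.83% were likewise lower in every high library than in any low one. PLS3, an actin-bundling plastin, was at 35.4, 19.3 and 33.1 FPKM in high, against 14.3, 20.9 and 14.5 FPKM in low libraries, and overlapped. GSN, the severing protein gelsolin, was at 294 ± 106 FPKM in high, against 417 ± 339 FPKM in low ovaries, with 801 FPKM in low 3. LCP1, a plastin of leukocytes, was at 42.4 ± 8.97 FPKM in high, against 33.3 ± 7.05 FPKM in low ovaries.

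Of 36 genes of contraction signalling and serum response factor activity, linked to caldesmon in mammals, 5 could be matched by name. Of these, 3 were tested and none passed, with 0 at an unadjusted limma p under 0.05. PRKCD, a protein kinase C gene, was at 43.0 ± 6.09 FPKM in high, against 35.0 ± 6.50 FPKM in low ovaries. Another, PRKCE, was at 5.10 ± 0.592 FPKM in high, against 6.35 ± 1.94 FPKM in low ovaries. The values of these 3 genes overlapped between groups. MRTFB, a cofactor of serum response factor, was at 2.70 ± 1.44 FPKM in high, against 3.08 ± 0.756 FPKM in low ovaries.

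Of 57 splicing regulators 7 could be matched by name and 5 were tested. On the log2 scale 4 were higher and 1 lower in the high group, with a median difference of 0.20. Counted as higher was MBNL3, whose mean FPKM was 2.20 in high, against 2.26 in low ovaries. These values are of the more abundant of 2 tested MBNL3 transcripts. In low 1 that transcript was at 0.0050 FPKM, against 2.49 and 4.28 FPKM in low 2 and low 3. None of the 5 passed and 0 had an unadjusted limma p under 0.05. SNRNP35, of the minor spliceosome, was at 18.5 ± 4.22 FPKM in high, against 15.8 ± 1.98 FPKM in low ovaries, and HNRNPM, which acts in exon choice, at 8.23 ± 1.94 FPKM in high, against 11.1 ± 2.71 FPKM in low ovaries. ESRP1, an epithelial splicing regulator, was at 8.13 ± 2.68 FPKM in high, against 7.70 ± 3.08 FPKM in low ovaries. Its relative ESRP2 was at 2.99 ± 1.12 FPKM in high, against 2.62 ± 1.74 FPKM in low ovaries. In low 3, where XM_005017091.2 was highest, ESRP2 and ESRP1 were at their lowest, 0.607 and 4.94 FPKM. HNRNPM and MBNL3 were at their highest there, 14.0 and 4.28 FPKM, and SNRNP35, at 14.2 FPKM, was at neither extreme. Low 1, where XM_005017091.2 was also above every high library, differed from low 3. There ESRP1 was at its highest, 11.0 FPKM, with ESRP2 at 3.68 and HNRNPM at 10.6 FPKM. These are values of the same libraries, and no relation between them was tested.

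Markers of other ovarian cells were summarised in the same way, and 0 of their genes passed. Higher and lower refer to the log2 difference. Stromal fibroblast genes were higher in high ovaries for 6 of 6 tested, by a median of 0.30 on the log2 scale. Their summed level was 989 to 1490 FPKM in high and 774 to 1305 FPKM in low libraries. For ASPN among them the log2 difference was 0.0066 (SE 0.36), and its mean FPKM was 41.0 in high, against 44.0 in low ovaries. Leukocyte genes were higher for 6 of 7, with a median of 0.57 and sums of 458 to 1608 FPKM in high and 207 to 477 FPKM in low libraries. The largest part of each sum was a single gene, JCHAIN. It was at 1347.5, 388 and 282 FPKM in the high libraries, against 95.5, 311 and 289 FPKM in the low libraries, and overlapped. Among the leukocyte genes LAPTM5 and RGS1 had an unadjusted limma p under 0.05. Over all lists 4 of 46 tested genes, or 8.70%, had such a p, against 3.51% of all tested transcripts. LAPTM5 overlapped between groups. RGS1 was at 35.1, 35.2 and 26.2 FPKM in high, against 13.6, 13.9 and 13.6 FPKM in low libraries, with a limma adjusted p of 0.45. Endothelial genes were higher for 4 of 7, oocyte genes for 4 of 6 and granulosa or theca genes for 2 of 3, with medians of 0.024, 0.086 and 0.015. Oocyte markers summed to 709 to 983 FPKM in high libraries and to 421 to 1147 FPKM in low libraries, with 421 in low 3. The part of these cell types in the CALD1 values was not tested.

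The transcripts with the most similar patterns were sought among 2180 tested transcripts of named genes other than CALD1, by the same root mean square difference. For XM_005017090.2 they were FHL1, a LIM-domain protein of muscle (0.075), ACTA2 (0.11) and DNAJB4, a chaperone (0.13). The FHL1 transcript was at 73.5, 72.2 and 59.2 FPKM in the high libraries, against 43.0, 98.6 and 114 FPKM in the low libraries. For XM_005017095.2 they were another transcript of FHL1 (0.054), ANGPTL1, a secreted angiopoietin-like protein (0.070), and the taurine transporter gene SLC6A6 (0.090). The FHL1 transcript here was at 101, 96.7 and 75.1 FPKM in high and 76.0, 127 and 137 FPKM in low libraries.

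XM_005017091.2 had no close match among these named transcripts. Its nearest were 2 transcripts of SLC6A6 (0.62 each) and SFSWAP, a splicing regulator (0.64). Its own spread about its mean was 1.18, against 0.31 to 0.45 for the others of the set. The distance is not scaled for the size of change, so a transcript that varies much lies far from those that vary little. SFSWAP was at 6.51, 4.99 and 4.40 FPKM in the high libraries, against 6.45, 13.5 and 14.2 FPKM in the low libraries, so high 1 was above low 1. For XM_005017093.2 the nearest were XIAP, an inhibitor of apoptosis (0.14), FLRT2, a cell-surface leucine-rich repeat protein (0.16), and BCAT1, which transaminates branched-chain amino acids (0.17).

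For the sum of the 4 the nearest were DNAJB4 (0.067), the ubiquitin ligase gene RNF4 (0.078) and CDH13, an atypical cadherin of vessel walls (0.086). For the sum of all 8 they were SKI, a repressor of TGF-beta signalling (0.060), TTBK1, a tubulin kinase (0.077), and ANGPTL1 (0.080). TTBK1 was low, at 0.436 FPKM in low 1 and 1.69 FPKM in low 3, where the sum of all 8 was 144 and 249 FPKM. DNAJB4, ANGPTL1 and XIAP were also low, at 1.37, 1.51 and 0.955 FPKM in high 3. The log2(FPKM + 1) scale understates the change of low transcripts. A small distance for these genes therefore does not show an equal proportional change. The sum of the 4 was 62.9, 51.6 and 40.7 FPKM in the high libraries, against 42.5, 83.6 and 100.7 FPKM in the low libraries, with low 1 between high 3 and high 2.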

How the data were processed

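Ovary RNA from 6 libraries, 3 per group, was measured by stranded mRNA sequencing, per the labels' protocols. Bowtie2 2.0.6 and TopHat2 2.0.9 were used, per the submitters' processing notes; for the abundance program, build and annotation, which were not given in the sources used here, nothing was assumed. The authors deposited 1 value per transcript without a unit. It was read as FPKM, because the deposited values are fractional and sum differently per library. No whole-read steps were found among 6632 low transcripts, where the fullest bin of log2 ratios (0.02 wide) held at most 1.10%. No count test was therefore run, depth is unknown, and precision rests on the replicates.

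Transcripts were matched by accession without version to RefSeq symbols (telomere-to-telomere Pekin duck assembly; 4636 of 41952 matched, 3452 with a symbol, 5 with identical version), so a transcript may since have been revised. The 19790 transcripts that reached 1 FPKM in 3 or more libraries were compared as log2(FPKM + 1), high minus low, with limma-trend (limma 3.58.1, R 4.3.3), two-sided, Benjamini-Hochberg threshold 0.05, and no covariate. This scale understates the change of low transcripts. The procedure was also run on simulated data with known differences. That simulation gave all libraries independent noise of equal size, unlike the unequal library weights given below. It therefore does not show how the calls behave in these libraries. The CALD1 transcripts passed the filter and are part of this fit and its counts, but no p-value is given for them. Their group differences are described by means, SDs and standard errors from the pooled SD. A list gene entered through its most abundant tested transcript.

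The CALD1 transcripts, the gene lists and the rule for naming were chosen with earlier results of these data known. The rule took all CALD1 transcripts, up to 4 of the most abundant tested genes per list and the 3 nearest patterns; of marker lists other than smooth muscle, and for some genes it takes, only summaries or fewer genes are given. Low values, scaling, pseudocount, weights and each replicate were varied. Sequences and exon structures were not analysed here. Replicates were numbered in the order of the records. At most 0.00271% of values were identical between any 2 libraries.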

Additional observations from a re-analysis of the deposited data

How the results depend on the processing

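No paired analysis was possible because the labels number the libraries without repeating a number across groups. Over all transcripts limma called 1; it called 0 with no filter on low values, where 1771 had an unadjusted p under 0.05, and 2292 with array weights. Leaving out 1 library and reapplying the filter, it called between 0 and 2, with 0 without low 2 (447 at an unadjusted p under 0.05) and 2 without high 1. The weights gave low 2 a weight of 17.3 against 0.251 and 0.269 for low 1 and low 3. The cause was not tested.

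The share difference between groups was 0.58 points for XM_005017090.2 and -4.67 points for XM_005017091.2 with the sum of all 8 CALD1 transcripts as denominator, in place of 9.62 and -12.1. The 4 transcripts made up 27.7% to 40.4% of that sum, so shares of it are smaller by definition. The share difference of XM_005017095.2 turned to -0.059 points with that denominator. The other settings moved the CALD1 values by less than the spread between replicates. XM_005017091.2 kept its direction in each, with log2 differences from -2.40 to -1.44. XM_005017090.2 ran from -0.61 to 0.070 and changed sign without low 3; relative to ACTA2, a setting added after the data were seen, it was -0.054 and XM_005017091.2 was -2.22. The log2 ratio of XM_005017095.2 to XM_005017090.2 ran from -0.24 to 0.098 with a library left out. The list medians changed sign in some setting for smooth muscle (-0.29 to 0.14), caldesmon regulators, splicing regulators, endothelial, oocyte and granulosa or theca genes, and kept it for actin filament, stromal and leukocyte genes.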
